A study of Homo sapiens with 2 samples.

Results

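Loci of innate sensing and antigen trimming were examined in maps of open chromatin. The genes were JAK2, IFIH1, RIGI, ERAP1 and ERAP2, 5 of the 20033 protein-coding genes considered. The genes are listed members chosen by earlier readouts of the same peak lists (a peak near a gene end, and its fold enrichment). The presence and the fold enrichment of such peaks at them are therefore a description and carry no test. All peaks in each gene and within 500 kb of it were taken. The windows of ERAP1 and ERAP2 overlap and were merged, which gave 4 windows holding 14 of the 2010 control peaks and 11 of the 2418 knockdown peaks. The cells were C4-2 (written C42 in the labels), an androgen-independent derivative of the LNCaP prostate cancer line. One ATAC-seq library was made from cells given a control shRNA (shCTR, the reference) and the other from cells carrying an shRNA to WHSC1, the gene also named NSD2, which encodes a histone H3 methyltransferase. Apart from the shRNA, the labels give the same line and the same medium for both libraries, and they do not name the shRNA sequence or whether a clone was used. In ATAC-seq a transposase cuts and tags accessible DNA, and a peak is a stretch with more tags than its surroundings.

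RIGI and IFIH1 encode the cytosolic helicases RIG-I and MDA5, which bind double-stranded or uncapped viral RNA and signal through the adaptor MAVS to TBK1 and the interferon regulatory factors. The interferons made in response act on neighbouring cells through receptors coupled to JAK kinases. JAK2 serves the interferon-gamma receptor and several cytokine and growth hormone receptors, and it phosphorylates STAT proteins. ERAP1 and ERAP2 are aminopeptidases of the endoplasmic reticulum that trim peptides to the length MHC class I molecules hold. The study's title places WHSC1 in immune infiltration of prostate cancer. These loci belong to immune pathways, but peaks in a cultured cell line do not measure infiltration.

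The start regions of the loci are shown first, since they are where the called peaks lie or, at the listed starts of ERAP1 and ERAP2, where none was called. Each is a RefSeq promoter window on GRCh38.p14, printed 5′ to 3′ on the strand of the gene from 250 bases before the start site through 30 bases from it on. Capitals mark matches to an interferon-type motif (GAAANNGAA, or GAAANGAAA with a shorter spacer, on either strand) and, in JAK2 and LNPEP, matches to the SP1/KLF motif GGGCGG, on either strand.
JAK2 (chr9:4985022-4985301, plus strand): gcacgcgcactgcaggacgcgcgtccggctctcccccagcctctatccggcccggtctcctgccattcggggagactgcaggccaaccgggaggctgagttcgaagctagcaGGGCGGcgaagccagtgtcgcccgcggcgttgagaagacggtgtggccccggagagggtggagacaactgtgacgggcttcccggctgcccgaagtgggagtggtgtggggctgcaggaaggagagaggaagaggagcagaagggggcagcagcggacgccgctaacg
IFIH1 (chr2:162318655-162318934, minus strand): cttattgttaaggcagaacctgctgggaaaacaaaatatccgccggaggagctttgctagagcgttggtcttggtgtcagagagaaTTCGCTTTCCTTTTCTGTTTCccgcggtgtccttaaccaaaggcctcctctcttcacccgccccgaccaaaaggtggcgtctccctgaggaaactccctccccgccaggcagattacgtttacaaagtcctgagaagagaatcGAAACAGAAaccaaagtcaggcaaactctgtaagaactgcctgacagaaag
RIGI (chr9:32526167-32526446, minus strand): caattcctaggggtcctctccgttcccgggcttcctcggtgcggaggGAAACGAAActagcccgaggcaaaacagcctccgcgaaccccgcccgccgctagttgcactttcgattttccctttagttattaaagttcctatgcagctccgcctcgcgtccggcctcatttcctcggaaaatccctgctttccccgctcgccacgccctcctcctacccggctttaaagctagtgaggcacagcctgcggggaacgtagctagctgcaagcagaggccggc
ERAP1 (chr5:96807916-96808195, minus strand): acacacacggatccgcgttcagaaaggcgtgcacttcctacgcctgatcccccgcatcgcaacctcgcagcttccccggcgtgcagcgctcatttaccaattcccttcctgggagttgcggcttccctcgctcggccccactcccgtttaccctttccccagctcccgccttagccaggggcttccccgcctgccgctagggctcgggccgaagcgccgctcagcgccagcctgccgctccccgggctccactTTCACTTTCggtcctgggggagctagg
ERAP2 (chr5:96876250-96876529, plus strand): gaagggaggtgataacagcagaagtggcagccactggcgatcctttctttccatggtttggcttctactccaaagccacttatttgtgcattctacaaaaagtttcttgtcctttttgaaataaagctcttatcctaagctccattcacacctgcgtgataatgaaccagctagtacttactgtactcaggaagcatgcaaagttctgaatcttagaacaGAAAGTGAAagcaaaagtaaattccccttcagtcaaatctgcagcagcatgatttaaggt
LNPEP (chr5:96935830-96936109, plus strand): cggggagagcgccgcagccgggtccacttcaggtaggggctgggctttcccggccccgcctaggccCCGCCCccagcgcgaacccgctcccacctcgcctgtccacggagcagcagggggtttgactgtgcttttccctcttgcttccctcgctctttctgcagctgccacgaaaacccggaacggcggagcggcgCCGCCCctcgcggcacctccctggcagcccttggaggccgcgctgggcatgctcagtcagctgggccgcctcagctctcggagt

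Each group has 1 library, so a difference has no replicate spread to be judged by, and p-values are not given. Fold enrichment is each peak's own value from the authors' peak caller, the pileup over the local background of the same library, and the −log10 q is that caller's measure of confidence. The files hold no read counts, so depth is unknown, and a missing peak is a missing call at the authors' threshold (the lowest −log10 q was 1.01 in the control list and 1.02 in the knockdown list). The median fold enrichment was 3.59 over all control peaks and 3.46 over all knockdown peaks. The knockdown cannot be checked from peaks: NSD2 had its nearest control peak 280 kb away and its nearest knockdown peak 1178 kb away. As to the labelled cell type, 2 of 12 luminal prostate genes (ACP3 and STEAP2) had a peak within 3 kb of a gene end in each library, and none of 13 leukocyte and 8 stromal or endothelial genes had one in either. Of 13 housekeeping genes, only PGK1 had one, in the control (4.15-fold), so these sparse lists cannot show that a gene without a peak is closed.

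Within 3 kb of a gene end, 4 of the 5 genes had a peak with the control shRNA (JAK2, IFIH1, RIGI and ERAP1) and 3 in the knockdown library (JAK2, IFIH1 and ERAP1). Over all protein-coding genes 6.28% had such a peak in the control and 7.52% did in the knockdown. Since the genes were chosen for these peaks, nothing is read from the contrast. Measured from the start sites in the RefSeq promoter table instead, a distinction chosen after seeing the data, 3 genes counted in the control and 2 in the knockdown, because ERAP1 dropped out. Of the 15842 protein-coding genes in that table, 6.54% had a peak within 3 kb of a start site in the control and 7.95% did in the knockdown.

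**Figure D1:**
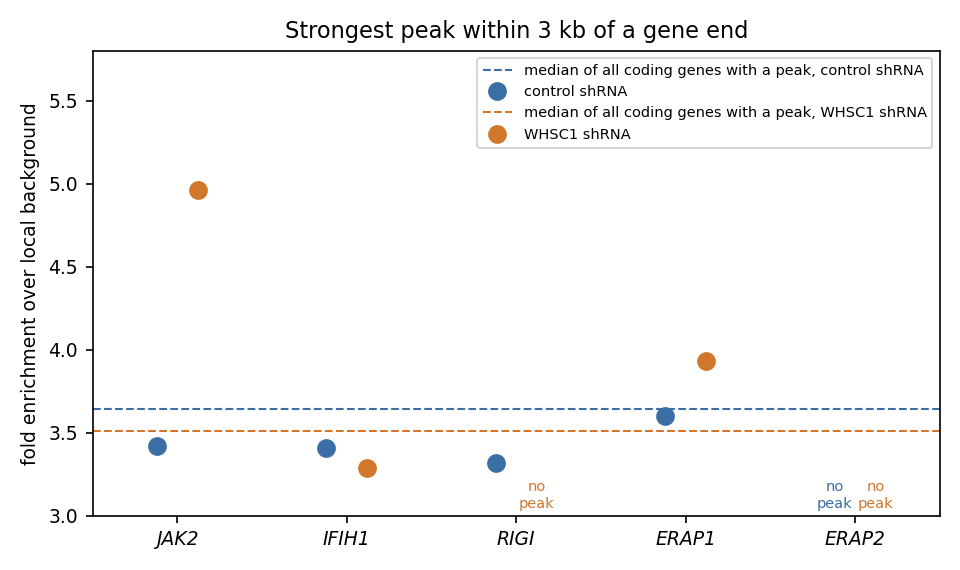
Fold enrichment over local background (vertical axis) of the strongest peak within 3 kb of either end of each gene, in the control shRNA library (blue) and the WHSC1 shRNA library (orange), 1 library each; dashed lines are the medians of all protein-coding genes with such a peak, 3.64 and 3.51. JAK2 was at 3.42 in the control and at 4.96 in the knockdown, RIGI had a peak in the control alone and ERAP2 had none.

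JAK2, the receptor-associated tyrosine kinase, had a peak over its start in both libraries. The gene lies on chromosome 9 from 4984390 to 5129948 on the plus strand (146 kb). The control peak ran from 4984802 to 4985349 (548 bp) with 3.42-fold enrichment and a −log10 q of 1.62. The knockdown peak ran from 4984421 to 4985245 (825 bp) with 4.96-fold enrichment and a −log10 q of 6.79. In its own list the control peak was an ordinary weak one, with 32% of control peaks lower in fold, while the knockdown peak stood near the top of its list, with 96.9% of knockdown peaks lower. Among protein-coding genes with a gene-end peak, 71.9% had a higher fold than JAK2 in the control, and 1.53% had one in the knockdown. The fold of gene-end peaks was among the readouts by which JAK2 was chosen, so these ranks are a description.

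The 2 peaks overlapped but did not cover the same start sites. The table lists 4 start sites for JAK2. The site at 4985086 lay inside both peaks. The site at 4985272, whose upstream sequence is printed above, lay inside the control peak and 27 bp beyond the knockdown peak. The site at 4984390 lay 31 bp outside the knockdown peak and 412 bp outside the control peak. The last site, at 5041532 inside the gene, was over 56 kb from either peak (56.2 kb and 56.3 kb). The called region thus reached further upstream in the knockdown library and further downstream in the control.

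IFIH1, which encodes the RNA sensor MDA5, had a weak peak in both libraries. The gene lies on chromosome 2 from 162267074 to 162318684 on the minus strand (51.6 kb) and has 1 start site in the table, at 162318684. The control peak ran from 162318219 to 162318943 (725 bp) with 3.41-fold enrichment and a −log10 q of 1.58. The knockdown peak ran from 162318550 to 162319049 (500 bp) with 3.29-fold enrichment and a −log10 q of 1.38. Both covered the start site, and both sat in the lower part of their lists, with 30.9% of control peaks and 29.8% of knockdown peaks lower in fold. With the knockdown list shortened to the control's length by −log10 q, the IFIH1 knockdown peak was no longer in it, and 2 of the 5 genes had a knockdown peak near a gene end.

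The IFIH1 peak cannot be assigned to IFIH1 alone. GCA, which encodes the calcium-binding protein grancalcin, starts 79 bp away on the opposite strand, at 162318763, and that site lay inside both peaks as well. GCA has further start sites 25.4 kb and 25.7 kb from that of IFIH1, and the strongest peak of the whole IFIH1 window lay there. In the control it ran from 162343986 to 162344411 (4.39-fold, −log10 q 4.4), and in the knockdown from 162343858 to 162344424 (4.85-fold, −log10 q 6.78). In both libraries, then, the inner start sites of the neighbour carried a higher fold than the start shared with the sensor.

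RIGI, the gene of the sensor RIG-I, had a peak in the control library only. It lies on chromosome 9 from 32455302 to 32526196 on the minus strand (70.9 kb), with its start site at 32526196. The control peak ran from 32526359 to 32526593 (235 bp) with 3.32-fold enrichment and a −log10 q of 1.59, and began 163 bp upstream of the start site without covering it. In the control list 21.8% of peaks had a lower fold and 27% a lower −log10 q, which places the peak among the weaker calls. The nearest knockdown peak was 475 kb from the start site. Of all control peaks, 923 of 2010 were not overlapped by a knockdown peak, so a call in the control alone was common.

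ERAP1 and ERAP2 had no peak at any start site in the table, in either library. ERAP1 lies on chromosome 5 from 96760813 to 96935854 on the minus strand (175 kb). Its listed start sites, at 96807945 and 96814145, were 127 kb and 121 kb from the nearest peak in both libraries. ERAP2 lies from 96875984 to 96919716 on the plus strand (43.7 kb), and its start sites, at 96875984 and 96876500, were 58.8 kb and 58.3 kb from the nearest control peak and 58.9 kb and 58.4 kb from the nearest knockdown peak. The nearest peak was the same region in all of these cases.

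That region is the peak counted for ERAP1 by gene ends. It ran from 96934777 to 96936031 in the control (1255 bp, 3.6-fold, −log10 q 3.09) and from 96934902 to 96936097 in the knockdown (1196 bp, 3.93-fold, −log10 q 4.49). It spans the upstream boundary of the ERAP1 record, where the table lists no start site of ERAP1, and it lies at the start of LNPEP. LNPEP encodes insulin-regulated aminopeptidase, a relative of ERAP1 and ERAP2 that trims peptides in endosomes. The LNPEP start site at 96936080 lay 49 bp outside the control peak and inside the knockdown peak. A start site of the predicted gene LOC124901030 lay 44 bp outside the control peak and inside the knockdown peak. By listed start sites, the called region of this locus lay at LNPEP and LOC124901030. The upstream boundary of the minus-strand ERAP1 record, 96935854, lay inside both peaks as well. The ERAP1 record extends upstream to this boundary, but the 2 start sites listed for ERAP1 do not lie there. A start of ERAP1 at the boundary may thus be missing from the listed sites. The peak therefore cannot be assigned to LNPEP, LOC124901030 or ERAP1 alone.

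**Figure D2:**
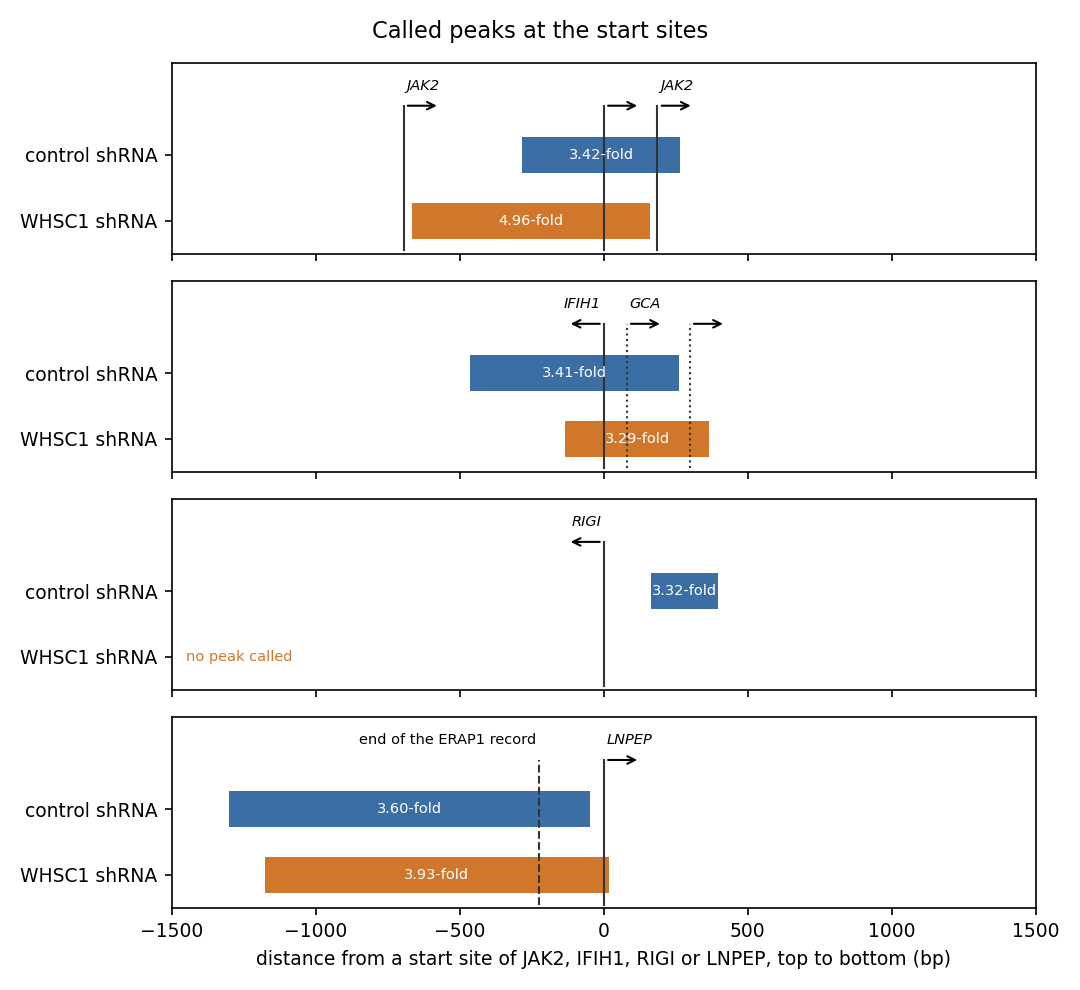
Extent of the called peaks (bars, with their fold enrichment) around start sites of JAK2, IFIH1, RIGI and LNPEP, as distance in bp on the horizontal axis, with the control library above the WHSC1 shRNA library in each panel; arrows give listed start sites and their strand, dotted for GCA, and the dashed line the boundary of the ERAP1 record. The JAK2 and IFIH1 peaks cover a start site in both libraries, the RIGI peak begins 163 bp upstream of its site, and the bottom peak ends at LNPEP.

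The start regions differ in sequence. The JAK2 window at 4985272 had 69% G and C and 28 CpG pairs in 300 bases, and the window at 4985086 had 73.3% and 39. The RIGI window had 60.3% and 27, the window of ERAP1 at 96807945 67.7% and 28, and that of LNPEP at 96936080 71.3% and 29. IFIH1, with 50.7% and 12 CpG pairs, and ERAP2 at 96876500, with 40.3% and 3, were poorer. Over all 35116 promoter windows of the table the medians were 58.7% and 14, and over the windows overlapped by a peak they were 64.7% and 27 in each library. The IFIH1 peaks also covered the GCA start at 162318763, whose window had 63.3% and 23 CpG pairs. The GCA start at 162318982, inside the knockdown peak only, had 52% and 12. The IFIH1 window was thus poorer in CpG than the median window, but the peaks over it were not confined to it. ERAP1 had no peak at its start at 96807945, whose window was as rich as the median window with a peak.

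Of 10 motifs searched on both strands, the interferon-stimulated response element (ISRE), the binding motif of the interferon regulatory factors, was written as GAAANNGAA and was found in 8.11% of all windows and, among the 18 interferon-stimulated genes of a list with a window, in 17 genes (21 of 23 windows). IFIH1 held 4 matches, 3 overlapping ones between positions -164 and -144 from the start site and 1 at -21 to -13, and all lay inside the peak of both libraries. ERAP1 held 1 match at bases 4 to 12 counted from its start at 96807945 on, and ERAP2 held 1 at -30 to -22 from its start at 96876500. No called peak covered the matches of ERAP1 and ERAP2. RIGI and JAK2 held no GAAANNGAA in their windows. RIGI held GAAANGAAA, a spelling added after its sequence was seen and found in 3.12% of windows, at -203 to -195 from the start site and inside the control peak. The other listed ERAP1 window, at 96814145, held it too, outside any peak.

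The other motifs gave few matches. GGGCGG (SP1/KLF, in 45% of windows) was found in IFIH1, RIGI, JAK2 at 4985272 and LNPEP at 96936080. TTCNNNGAA (the STAT motif GAS, 7.66%), GGGACTTTC (NF-kB, 0.387%), CCGGAAG (ETS, 10.3%), GCGCATGCG (NRF1, 1.92%), TGACGTCA (CRE, 1.85%), GGCCAAT (NF-Y, 5.36%), AAGATGGC (YY1, 2.89%) and TATAAA (TBP, 11.5%) were in no window of the 5 genes. GAAANNGAA and GAAANGAAA can overlap each other, and the IFIH1 and GCA windows share bases. A match is only a run of letters, and its absence from a window says nothing of the factor.

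Of the 14 control peaks in the 4 windows, 11 lay within 3 kb of a gene end, and of the 11 knockdown peaks 8 did. Of all peaks, 60% lay that near a gene end in the control (1205 peaks) and 58.7% did in the knockdown (1419 peaks). The window counts include the 4 control and 3 knockdown peaks for which the genes were chosen, so nothing is read from them. The fold enrichment of the window peaks ranged from 3.32 to 4.39 in the control (median 3.49) and from 3.04 to 4.96 in the knockdown (median 3.73). None of the control peaks and 3 of the knockdown peaks reached a −log10 q of 5, which 9.5% of all control peaks and 9.88% of all knockdown peaks reached. Those 3 lay at JAK2, at the inner start of GCA and at RIOK2.

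No peak around RIGI was shared between the libraries, and both control peaks around ERAP1 and ERAP2 were. A peak of the other library overlapped 5 of the 14 control peaks (35.7%, 95% exact Clopper-Pearson interval 12.8 to 64.9%) and 5 of the 11 knockdown peaks (45.5%, interval 16.7 to 76.6%). Over the whole lists the shares were 54.1% in the control (interval 51.9 to 56.3%) and, for knockdown peaks, 44.7% (interval 42.7 to 46.7%). The intervals cover counting only. Of the 5 shared peaks 3 are the ones at JAK2, IFIH1 and LNPEP for which genes were chosen, so the window shares are a description. By window, 1 of 4 control peaks was shared around JAK2, 2 of 4 around IFIH1, 0 of 4 around RIGI and 2 of 2 around ERAP1 and ERAP2. In the knockdown it was 1 of 3, 2 of 3, 0 of 1 and 2 of 4.

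**Figure D3:**
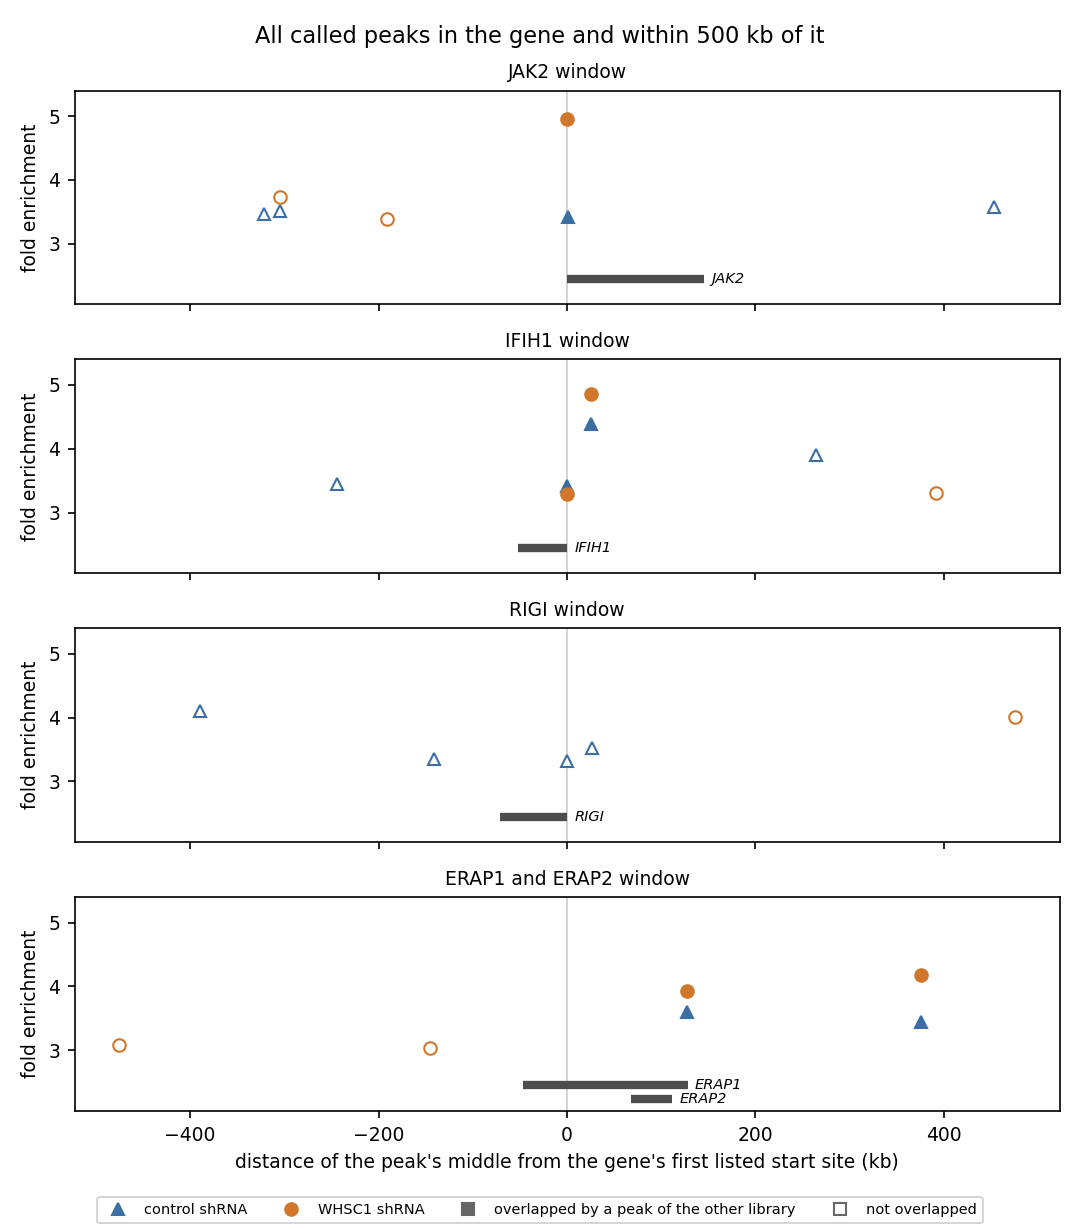
Called peaks in the 4 gene windows, by distance of the peak's middle from the first listed start site (horizontal axis, kb) and fold enrichment (vertical axis); triangles are the control shRNA library, circles the WHSC1 shRNA library, filled where a peak of the other library overlaps, and bars the genes. Of 14 control and 11 knockdown peaks 5 each are filled, none of them around RIGI.

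Around JAK2 (16 protein-coding genes in the window) the other peaks differed between the libraries in position. At CDC37L1, which encodes a relative of the kinase co-chaperone CDC37, a control peak (4679128 to 4679428, 3.51-fold) and a knockdown peak (4679435 to 4679754, 3.73-fold) lay 7 bp apart and so did not count as shared. PLPP6, a lipid phosphatase gene, had a peak in the control only (3.47-fold), as did PLGRKT, the gene of a plasminogen receptor (3.58-fold). The PLPP6 peak also overlapped SPATA6L, and the CDC37L1 peaks also lay near an end of CDC37L1-DT. RCL1, whose product acts in ribosomal RNA processing, had one in the knockdown only (3.39-fold). CD274 and PDCD1LG2, which encode the immune checkpoint ligands PD-L1 and PD-L2 and lie in the same window, had no peak in either library. The PLGRKT peak was the nearest control peak to CD274, at 12.7 kb, and the JAK2 peak the nearest knockdown peak, at 465 kb.

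Around IFIH1 (7 protein-coding genes) DPP4, the gene of a peptidase that clips chemokines, had a peak 158 bp from a start site in the control only (162074373 to 162074673, 3.44-fold). Ends of DPP4-DT and TIMM8AP1 also lay within 3 kb of that peak. FAP, a stromal peptidase gene beside it, had none, with the nearest peak 74.8 kb away in the control and 75.1 kb away in the knockdown. KCNH7, a potassium channel gene, held 1 peak inside the gene in each library, 128 kb apart (control 3.9-fold, knockdown 3.31-fold).

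Around RIGI (9 protein-coding genes) the control list held 4 peaks and the knockdown list 1. Besides the RIGI peak, the control had peaks at ACO1, the gene of iron regulatory protein 1 (3.35-fold), at the start of TOPORS, a ubiquitin and SUMO ligase gene (3.53-fold), and in a stretch with no gene end within 3 kb (4.1-fold). Ends of SMIM27 and NDUFB6 also lay within 3 kb of the TOPORS peak. The knockdown peak, 4.01-fold with a −log10 q of 4.41, lay at 33001508 to 33001803 over a start site of APTX, a DNA repair gene. It also covered a start site of LOC124902140. None of these 5 peaks was overlapped by a peak of the other library.

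Around ERAP1 and ERAP2 (8 protein-coding genes) both libraries had a peak at the start of RIOK2, a kinase of ribosome assembly, with 3.44-fold enrichment and a −log10 q of 1.94 in the control and 4.18-fold and 5.02 in the knockdown. The knockdown list also held 2 peaks within CAST, the gene of the calpain inhibitor calpastatin (3.08-fold and 3.04-fold), the second over a start site. Neither was overlapped by a control peak, and the first also lay near an end of LOC124901034. Outside the window, however, an end of CAST had overlapping peaks in both libraries (control 95961117 to 95961768, knockdown 95961508 to 95961822).

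The number of peaks per window can be set beside all protein-coding genes, of which 35.6% had at least 1 peak in the gene or within 500 kb in the control and 43.5% had one in the knockdown. The median gene had 0 and the upper quartile was 1 in each library. JAK2, IFIH1 and RIGI each had 4 in the control, a number that 4.19% of genes reached or passed, and ERAP1 and ERAP2 each had 2 (16.9%). In the knockdown, ERAP1 had 4 (5.64%), JAK2, IFIH1 and ERAP2 had 3 (11.1%) and RIGI had 1 (43.5%). JAK2, IFIH1, RIGI and, by gene ends, ERAP1 were chosen with a peak that counts here, and the peak at the LNPEP start counts for both ERAP1 and ERAP2.

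The 6 immune lists set these genes among their pathways: RNA sensing, DNA sensing, cytokine receptor and JAK-STAT signalling, interferon-stimulated genes, peptide-trimming aminopeptidases with the proteasome, and MHC class I with peptide loading. Of their 134 genes, 8 control and 8 knockdown genes had a gene-end peak (5.97% each, beside 6.28% and 7.52% of all protein-coding genes). Without JAK2, IFIH1, RIGI, ERAP1 and ERAP2, 4 of 129 (3.1%) had one in the control, and 5 (3.88%) did in the knockdown. The lists were chosen with results of these data known, and these shares are counts of few genes.

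Of 29 RNA sensing genes, 2 were called in the control (RIGI and IFIH1) and 3 in the knockdown (IFIH1, TBK1 and TRAF6). These are 6.9% and 10.3%, beside 6.28% and 7.52% of all protein-coding genes. TBK1, the kinase downstream of MAVS, had a 3.73-fold peak over its start with the WHSC1 shRNA only (chromosome 12, 64451893 to 64452194, −log10 q 2.83), which also lay near an end of XPOT. TRAF6, a ubiquitin ligase of the same signalling, had a 3.6-fold peak over its start in the knockdown only (chromosome 11, 36509948 to 36510315, −log10 q 2.52), near an end of RAG1. RIGI, called in the control alone, and TBK1 and TRAF6, called in the knockdown alone, all had a −log10 q under 3. Calls in a single library were common. Of all peaks, 923 of 2010 in the control and 1338 of 2418 in the knockdown were not overlapped by the other library. Nothing is therefore read from which of these genes was called in which library. MAVS, DHX58 and IRF3 were among the 25 genes of the list with no gene-end peak in either library. TANK, which encodes an adaptor that binds TBK1, was another of the 25, but a knockdown peak inside the gene (chromosome 2, 161160489 to 161160695, 3.54-fold, −log10 q 1.86) lay 61 bp from a listed start site.

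Of 36 cytokine receptor and JAK-STAT genes, 2 were called in the control and 3 in the knockdown. Besides JAK2, SOCS2, a feedback inhibitor of growth hormone signalling, had one in both (control 3.34-fold, knockdown 3.24-fold). LEPR, the leptin receptor gene, had a 2.99-fold peak in the knockdown only, which also lay near an end of LEPROT. JAK1, JAK3, TYK2 and the interferon receptor genes had none in either library. JAK2 was the only JAK kinase gene called, but it was chosen for its gene-end peaks, so this is a description. Of all protein-coding genes only 6.28% (control) and 7.52% (knockdown) were called, so the lack of a call at the other JAK genes does not set JAK2 apart.

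Among 24 interferon-stimulated genes, IFIT5, an RNA-binding effector, had a peak of 3.23-fold in the control alone (chromosome 10, 89414408 to 89415315, −log10 q 1.19), which also lay near an end of LIPA, and none had one in the knockdown. Of 19 trimming and proteasome genes, ERAP1 and LNPEP shared their peak in both libraries, and LAP3, a cytosolic leucine aminopeptidase gene, had one in the control only (3.38-fold, −log10 q 1.48). None of the 14 MHC class I and peptide loading genes examined, B2M and TAP1 among them, and none of the 12 DNA sensing genes, such as CGAS and STING1, had a gene-end peak in either library. With 6.28% (control) and 7.52% (knockdown) of all protein-coding genes called, lists this short can hold none, and nothing is read from it.

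**Figure D4:**
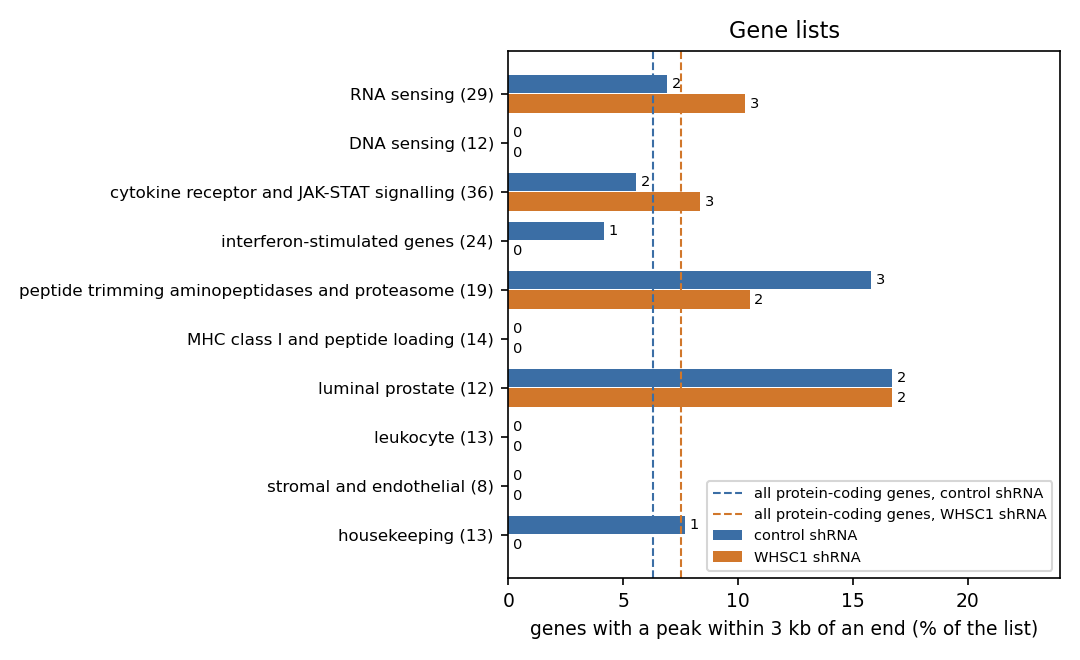
Share of each gene list with a peak within 3 kb of a gene end (horizontal axis, percent; list sizes in brackets, bar labels give the number of genes), in the control (blue) and WHSC1 shRNA (orange) libraries, with the shares of all protein-coding genes as dashed lines at 6.28% and 7.52%. No list holds more than 3 genes with a peak in a library.

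The pattern of each gene over the 2 libraries was also compared with other protein-coding genes that had a gene-end peak in the same libraries, by the sum of absolute differences in fold. Closest to JAK2 among 830 such genes were ZNF33B (control 3.35-fold, knockdown 5.01-fold, sum 0.109), RAPGEF2 (3.38-fold and 5.13-fold, sum 0.198) and FANCF (3.44-fold and 4.76-fold, sum 0.222, tied with GAS2). IFIH1 was matched by GCA, with which it shares the peak, then by ZNF487 (sum 0.0375) and HMSD (sum 0.0382, tied with SERPINB8). ERAP1 was matched by LNPEP and LOC124901030, with which it shares the peak, and by USP53 (sum 0.0506). RIGI, compared over the control alone among 427 genes, was closest to CGN and TUFT1 (sum 0.00072 each) and HIKESHI (sum 0.00219).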

How the data were processed

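The 2 ATAC-seq libraries, 1 per group, grouped by the condition label. Per the submitters' processing notes, the tools were MACS2, ChIPseeker 1.22.1, Picard 1.101, SAMtools 1.9, Bowtie2 2.2.9 and CASAVA 1.8.2, with the GRCh38 build. Their roles and options, the transposase shift and the handling of duplicates are, in both libraries, not given in the sources used here, and each can change where a peak ends. The authors deposited 1 broad peak list per library, not pooled. The deposited columns are a fold enrichment (a ratio to local background), a −log10 p and a −log10 q, and a score equal to 10 times the −log10 q, truncated. Read depth is unknown.

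Coordinates are 1-based. Genes, start sites and promoter sequences came from RefSeq tables (GRCh38.p14), and all 180 genes of the 10 lists matched by symbol; some genes are not reported here. A peak within 3 kb of a gene end counted for the gene, and any overlap from 1 bp made peaks shared. Shares carry 95% exact intervals. The members and lists were chosen with earlier results of these data known. Named genes were the 5 members, neighbours with a peak, list genes with a peak and, by likeness, 3 genes per member; CD274, PDCD1LG2, FAP and genes named without a peak were added after their values were seen. Alternatives changed the −log10 q limit, list length, distance, window and overlap. On simulated data, 200 of 200 planted gene-end peaks and 120 of 120 planted overlaps were recovered. Analyses ran in Python 3.11.15 (scipy 1.17.1, pandas 2.3.3, numpy 2.4.6, matplotlib 3.10.9).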

Additional observations from a re-analysis of the deposited data

How the results depend on the processing

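The counts followed the limit on −log10 q most. At 2 or more, 1 of the 5 genes had a gene-end peak with the control shRNA (the region at LNPEP counted for ERAP1) and 2 in the knockdown, the windows held 4 control and 6 knockdown peaks with 2 of each shared, and the immune lists kept 2 control and 5 knockdown genes. At 5 or more, 0 of the 5 genes had one in the control and 1, JAK2, had one in the knockdown, the windows held 0 and 3 peaks with 0 shared, and the lists had 0 and 1 genes. The shares over all protein-coding genes at these limits were not computed, so nothing is read from the difference between the libraries. Windows of 250 kb held 9 control and 7 knockdown peaks, and windows of 1000 kb held 17 knockdown peaks, with 9 shared in each library. With the knockdown list shortened to the control's length, IFIH1 lost its knockdown peak and 2 of the 5 genes had one. Counting CDC37L1, sharing within 1 kb gave 6 shared peaks in each library. Counts at other distances from gene ends, and with an overlap of 50% of both peaks, stayed within 1.5 times of those reported. Single libraries without read counts leave weak calls, such as RIGI's, with no measured error. No replicate could be left out, and no paired analysis was possible because each group has 1 library.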
